A study of Mus musculus with 8 samples.

Results

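The extracellular matrix is the protein scaffold outside cells, and 50 genes of it were followed in mouse pancreatic beta cells, which make and release insulin. They comprise 26 collagen genes, 6 collagen hydroxylases, 4 lecticans, 3 lysyl oxidases, 3 tissue inhibitors of metalloproteinases, the ADAMTS-like gene Adamtsl5, and 7 genes for laminins, nidogen, perlecan, fibronectin and SPARC. All 50 were found by symbol in the deposited tables. The members were named as a list, and that list was chosen with the difference between knockout and control libraries already known, in particular the high values of Col5a3 and Bcan. Their values in that comparison are therefore given as a description, without p-values.

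There were 4 libraries from Chd4KO mice, named for a knockout of the gene Chd4, and 4 libraries from Control mice. Mice of both genotypes had received tamoxifen, and in both the islets were dispersed and sorted by flow cytometry before RNA was extracted. The Cre driver, the strain and the age of the mice are not given in the sources used here. Each library carries its own number in the labels and was taken as a separate mouse. If the numbers mark something else, the p-values measure only the spread between these libraries.

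Collagens are triple helices of 3 chains that may be encoded by different genes, so a collagen type often needs several genes to be transcribed in the same cell. New chains are hydroxylated on proline and lysine in the endoplasmic reticulum, folded with the help of chaperones, trimmed after secretion and crosslinked by lysyl oxidases. In islets most fibrillar collagen comes from fibroblasts and stellate cells and much of the basement membrane from endothelial cells, and beta cells bind these proteins through integrins. Chd4 is an ATP-driven remodeller of nucleosomes, and the NuRD complex it drives holds histone deacetylases too.

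Levels are given in TPM, a share of all transcripts scaled for gene length, so that genes can be compared with each other. Depth, worked out from TPM and exon length, was 14.9 to 20.2 M reads in Chd4KO libraries and 16.4 to 41.0 M reads in Control libraries. Insulin transcripts (Ins1 and Ins2) took 32.4 to 62.0% of TPM in Chd4KO libraries and 38.1 to 41.8% in Control libraries, with the highest share in Chd4KO replicate 4. That library also had the fewest genes at 1 TPM or more, 12702 against 14788 to 15923 in the others. All 12 beta cell markers examined were at 20.4 TPM or more in every library. Mafa, a transcription factor of mature beta cells, averaged 47.0 ± 23.3 TPM in Chd4KO libraries and 165.7 ± 11.99 TPM in Control libraries (SD, n = 4 each, limma adjusted p = 0.0229), and Slc2a2, the glucose transporter GLUT2, averaged 67.8 ± 24.8 TPM in Chd4KO libraries and 170.3 ± 26.9 TPM in Control libraries (limma adjusted p = 0.031). Nkx6-1, Slc30a8 and G6pc2 were lower in every Chd4KO library than in any Control library and did not pass. Chd4 itself averaged 5.60 ± 2.40 TPM in Chd4KO libraries and 13.2 ± 2.08 TPM in Control libraries (SD, n = 4 each), and the groups did not overlap. The change of Chd4 was -1.18 ± 0.29 (log2, SE, limma adjusted p = 0.0725), which is outside the threshold of 0.05. Over the 16 alternatives its adjusted p ran from 0.0104 to 0.206, and it passed in 5 of them, which were median-of-ratios scaling (0.0104), scaling without hormones and mitochondrial genes (0.0206), voom (0.0332), without Chd4KO replicate 1 (0.0422) and without Chd4KO replicate 4 (0.0318). Over all genes in the fit the median change was -0.25 (log2), and changes are given below without correction for it.

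Most of the matrix genes were scarcely transcribed in either group. Of the 50 members, 27 were under 1 TPM in all 8 libraries, and 2 of these, Acan and Col9a1, had no read in any library. Only 13 members reached 1 TPM in at least 4 libraries and entered the fit. Of these 13, the genes Col5a3, Bcan, P4ha2, Col9a3 and Adamtsl5 passed the threshold in the fit across all genes (limma, Benjamini-Hochberg adjusted p under 0.05), all 5 higher in Chd4KO, and 8 did not pass. Over all 15189 genes tested, 451 passed (2.97%), with 233 higher in Chd4KO (1.53%) and 218 lower (1.44%). Of the 5, Col5a3, Bcan, Col9a3 and Adamtsl5 were tested only because all Chd4KO libraries reached 1 TPM while no Control library did, so the share of 5 in 13 is fixed in part by the filter and by the choice of the list. The median change over the 13 was 0.15 (log2), against -0.25 over all genes tested.

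**Figure D1:**
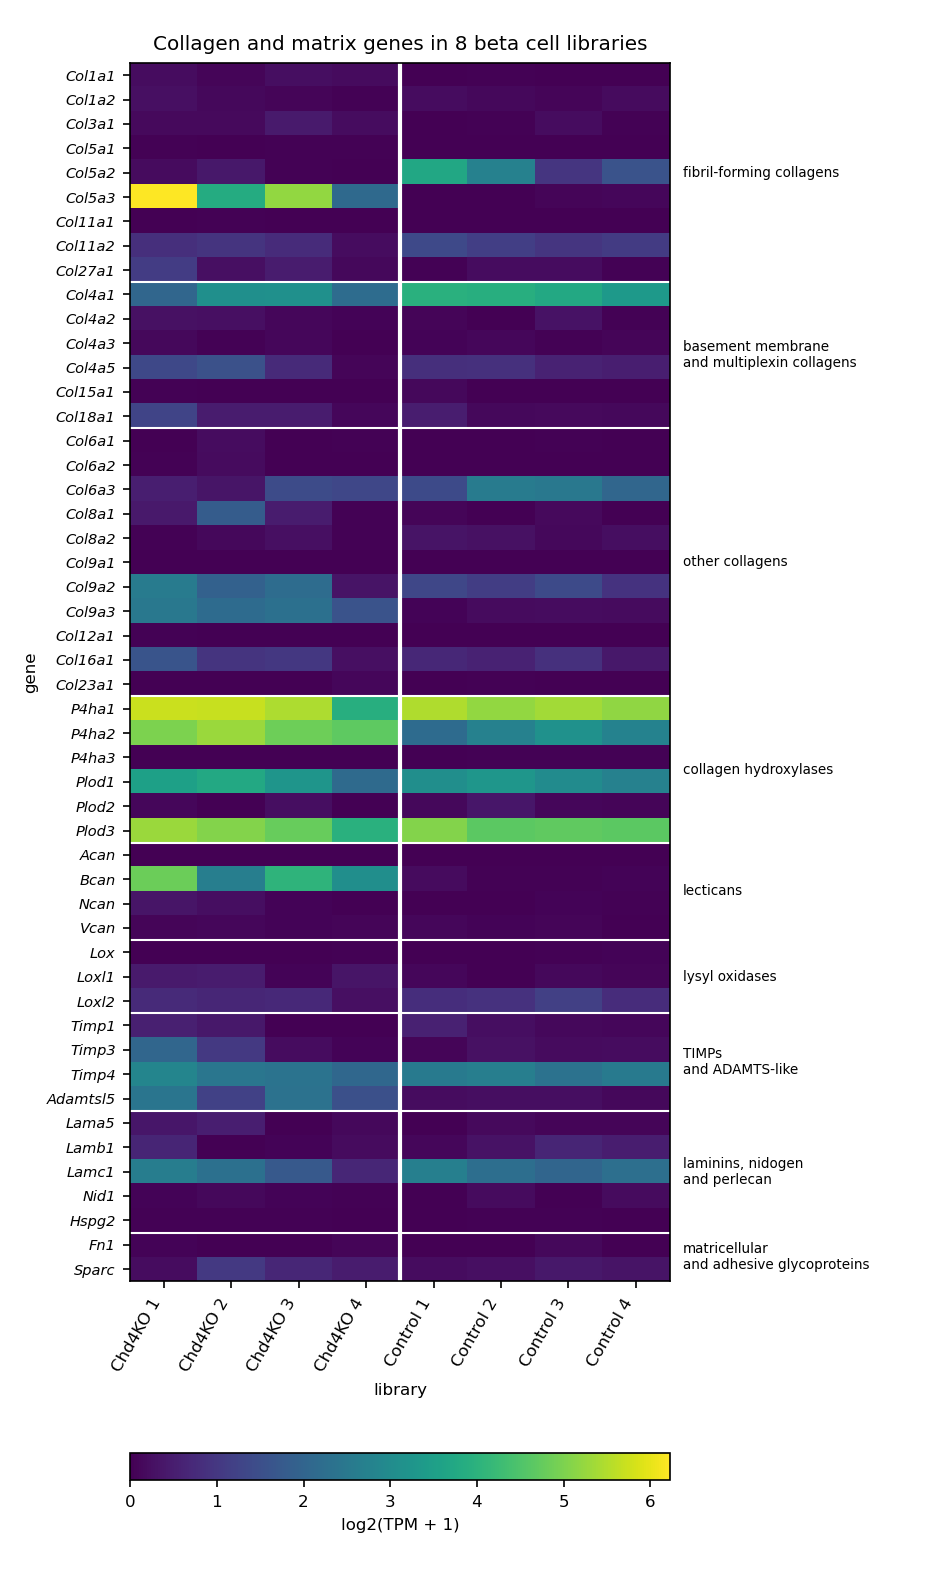
Level of each of the 50 matrix genes, as log2(TPM + 1), in each library, with Chd4KO libraries on the left and Control libraries on the right and genes grouped by role. Most rows are dark throughout, Col5a3, Bcan, P4ha2, Col9a3 and Adamtsl5 are brighter in all 4 Chd4KO libraries, and Col5a2, Col4a1 and Col6a3 are brighter in Control libraries.

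The promoters of 4 of the 5 genes are shown because the data bear on transcripts that were at or near 0 in Control libraries for 3 of them and present in both groups for P4ha2. The sequences are from RefSeq (GRCm38.p6, the assembly behind mm10) and run from 250 bases before to 50 bases after the annotated start, 5′ to 3′ on the gene's strand, with CG dinucleotides in capitals. They lie at chr9:20815018-20815317 for Col5a3, chr3:88000307-88000606 for Bcan, chr10:80348399-80348698 for Adamtsl5 and chr11:54100674-54100973 for P4ha2. The RefSeq start used for Bcan lies upstream of the GENCODE gene body given below.
Col5a3: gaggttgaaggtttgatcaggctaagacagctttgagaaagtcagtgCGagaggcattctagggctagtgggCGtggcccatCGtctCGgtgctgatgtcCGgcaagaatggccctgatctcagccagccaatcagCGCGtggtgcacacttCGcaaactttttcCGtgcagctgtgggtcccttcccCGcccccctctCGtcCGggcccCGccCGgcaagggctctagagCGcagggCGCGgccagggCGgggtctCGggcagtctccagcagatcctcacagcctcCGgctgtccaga
Bcan: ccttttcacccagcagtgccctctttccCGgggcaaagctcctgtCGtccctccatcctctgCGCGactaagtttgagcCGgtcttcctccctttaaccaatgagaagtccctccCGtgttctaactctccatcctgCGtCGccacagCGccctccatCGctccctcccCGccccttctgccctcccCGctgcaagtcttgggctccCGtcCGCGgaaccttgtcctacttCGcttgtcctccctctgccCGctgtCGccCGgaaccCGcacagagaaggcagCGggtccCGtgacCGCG
Adamtsl5: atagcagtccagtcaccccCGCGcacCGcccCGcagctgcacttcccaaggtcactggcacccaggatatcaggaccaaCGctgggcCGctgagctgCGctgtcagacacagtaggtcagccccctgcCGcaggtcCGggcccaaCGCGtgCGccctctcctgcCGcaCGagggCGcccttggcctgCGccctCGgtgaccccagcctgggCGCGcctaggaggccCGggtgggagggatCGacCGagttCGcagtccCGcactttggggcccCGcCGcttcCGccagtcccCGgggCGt
P4ha2: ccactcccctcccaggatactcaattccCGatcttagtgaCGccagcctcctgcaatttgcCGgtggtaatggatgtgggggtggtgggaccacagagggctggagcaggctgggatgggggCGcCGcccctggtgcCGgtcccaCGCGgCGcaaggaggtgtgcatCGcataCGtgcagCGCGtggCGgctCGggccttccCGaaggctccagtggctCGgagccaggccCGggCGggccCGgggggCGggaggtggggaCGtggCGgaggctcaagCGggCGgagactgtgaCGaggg

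All 4 windows are rich in CG. They hold 20 CG dinucleotides (Col5a3), 24 (Bcan), 29 (Adamtsl5) and 26 (P4ha2) in 300 bases, against a median of 7 over all 32851 promoter windows. CG-rich windows are common among the members, however. The 35 other members with an entry had a median of 16 and ranged from 0 to 37, and Col4a1, which was lower in Chd4KO, had 37. Searched on both strands, GGGCGG occurred 3 times in Col5a3, 1 time in Bcan, 1 time in Adamtsl5 and 4 times in P4ha2, and is held by 35.7% of all windows. CCAAT occurred 1 time each in Col5a3 and Bcan (37.4% of all windows), CANNTG 1 time each in Col5a3 and Adamtsl5 (72.3%), and TATAAA in none of the 4 (13.6%). A match in letters is a description of the window and not evidence of binding.

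Of the 9 fibril-forming collagens only Col5a3 entered the fit. In 4 of the 9 the groups did not overlap, with Col5a3 and Col1a1 higher in Chd4KO and Col5a2 and Col11a2 lower. Col1a1, Col5a2 and Col11a2 were not tested. The share without overlap over all genes, tested or not, was not worked out, so the 4 of 9 are a description. Col5a3 (ENSMUSG00000004098, mm10 chromosome 9, 20770050 to 20815067, minus strand) encodes the alpha 3 chain of type V collagen, a minor fibril component, and its loss in mice has been reported to affect islets. It had 73.7, 13.2, 36.0 and 3.36 TPM in Chd4KO replicates 1 to 4, against 0, 0.0159, 0.0626 and 0.0736 TPM in Control replicates 1 to 4. Every Chd4KO library lay above every Control library, but the Chd4KO libraries differed widely among themselves, with replicate 1 highest and replicate 4 lowest. The small noncoding gene Gm26274 lies within Col5a3 over 321 bases without touching its exons. In reads the values of Col5a3 are 3638, 634, 1769 and 271 in Chd4KO and 0, 2, 5 and 8 in Control. A count of 0 in Control replicate 1 allows up to 3 reads, or 0.0622 TPM, a limit that covers counting error only. The change was 4.29 ± 0.74 on the log2(TPM + 1) scale (SE), which understates changes of genes that are near 0 in a group. Its call was lost without Chd4KO replicate 3, where the change was 4.005, and without each of the 4 Control libraries in turn, where it was 4.28 to 4.31.

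The chains that type V collagen is built from did not follow Col5a3. The alpha 3 chain is known from trimers with the alpha 1 and alpha 2 chains, encoded by Col5a1 and Col5a2. Col5a1 had 0.0322, 0, 0.0324 and 0.0296 TPM in Chd4KO libraries, or 7 reads in all, and no read in any Control library. Col5a2 had the opposite order of groups to Col5a3. It had 0.144, 0.325, 0.0289 and 0.00880 TPM in Chd4KO replicates 1 to 4, against 12.2, 5.69, 0.951 and 2.02 TPM in Control replicates 1 to 4. All Chd4KO values lay below all Control values, with 35 reads in the 4 Chd4KO libraries and 2258 in the 4 Control libraries. Col5a2 reached 1 TPM in only 3 libraries and so was not tested as planned, although it passed the threshold, as lower, under the scaling that omits hormone and mitochondrial transcripts, where more genes reached the filter. Col5a3 exceeded the sum of Col5a1 and Col5a2 by 40.6 to 588 times in Chd4KO libraries, and in Control libraries it was at most 0.0658 of that sum.

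The collagens typical of fibroblasts stayed near the limit of detection. Col1a1 and Col1a2, the chains of type I collagen, and Col3a1 of type III collagen summed to 0.459, 0.283, 0.603 and 0.312 TPM in Chd4KO replicates 1 to 4, against 0.148, 0.148, 0.238 and 0.167 TPM in Control replicates 1 to 4. The summed values did not overlap, but they rest on few reads. Col1a1 had 28 reads over the Chd4KO libraries and 5 over the Control libraries. Col3a1 had 61 reads over the Chd4KO libraries and 28 over the Control libraries, and Col1a2 had 36 over the Chd4KO libraries and 70 over the Control libraries. Col1a1 was higher in every Chd4KO library, while Col1a2 and Col3a1 overlapped between the groups. In Chd4KO libraries Col5a3 exceeded the sum of the 3 genes by 10.8 to 160 times, and in Control libraries it was 0 to 0.439 of it.

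Of the other fibrillar genes, Col11a2, a chain of type XI collagen, had 0.783, 0.927, 0.705 and 0.160 TPM in Chd4KO libraries and 1.60, 1.22, 0.943 and 1.12 TPM in Control libraries, with no overlap. Col27a1 of type XXVII collagen had 0.0908 to 1.17 TPM in Chd4KO libraries and 0.0325 to 0.164 TPM in Control libraries. Its groups overlapped, and Chd4KO replicate 1 was highest. Col11a1 had 2 reads in the Chd4KO libraries and 1 in the Control libraries.

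**Figure D2:**
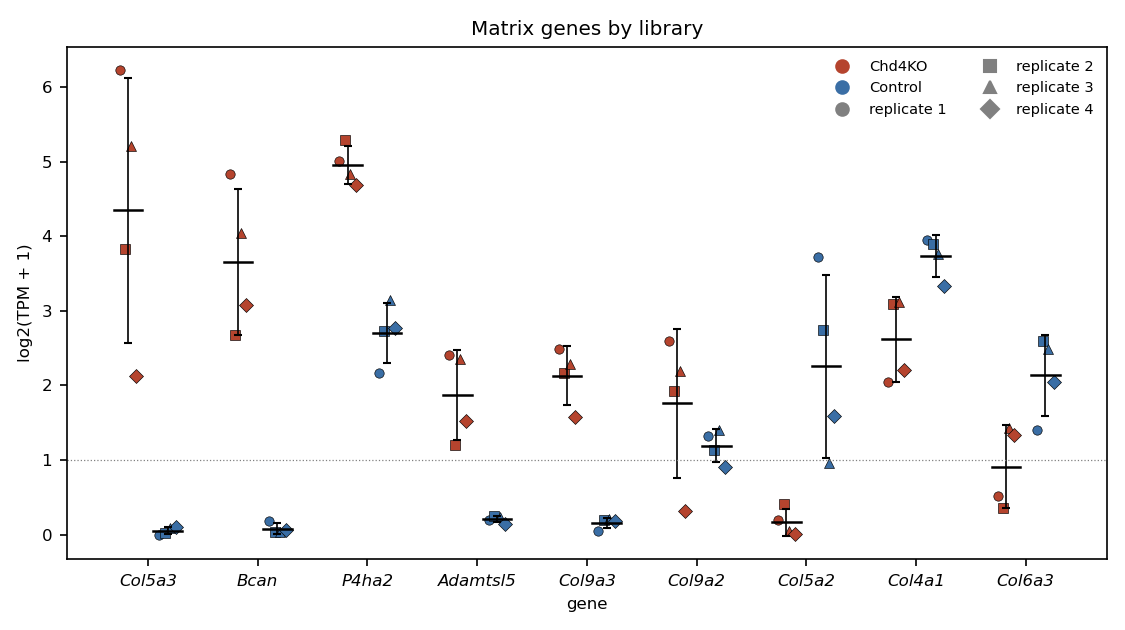
Level of 9 matrix genes as log2(TPM + 1), Chd4KO libraries in red on the left of each gene and Control libraries in blue on the right, with a symbol for each replicate number, a bar at the group mean and whiskers of 1 SD (n = 4). Col5a3, Bcan, P4ha2, Adamtsl5 and Col9a3 do not overlap and are higher in Chd4KO, Col5a2 and Col4a1 do not overlap and are lower, and Col9a2 and Col6a3 overlap. The dotted line marks 1 TPM.

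The basement membrane collagens were carried by Col4a1, again without its partner. Col4a1 encodes the alpha 1 chain of type IV collagen, which in basement membranes forms trimers with the alpha 2 chain of the neighbouring gene Col4a2. Col4a1 had 3.12, 7.53, 7.65 and 3.63 TPM in Chd4KO replicates 1 to 4, against 14.4, 13.9, 12.6 and 9.09 TPM in Control replicates 1 to 4. Every Chd4KO library was below every Control library, and the change of -1.12 ± 0.30 (log2, SE) did not pass the threshold. Col4a2 stayed at 0.0383 to 0.208 TPM in Chd4KO libraries and 0.00815 to 0.245 TPM in Control libraries. It had 26 reads over the Chd4KO libraries, against 1299 for Col4a1, and 25 over the Control libraries, against 4871 for Col4a1. The imbalance between the pair was thus present in both genotypes.

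Col4a5 of the type IV collagen of kidney and other specialised membranes had 1.54, 1.94, 0.681 and 0.0628 TPM in Chd4KO libraries and 0.438 to 0.827 TPM in Control libraries, and the groups overlapped. Col18a1, whose end fragment is endostatin, had 1.43 TPM in Chd4KO replicate 1, 0.0842 to 0.395 TPM in the other Chd4KO libraries and 0.0892 to 0.422 TPM in Control libraries. Col4a3 was at most at 0.0969 TPM and Col15a1 at most at 0.0889 TPM. Exons of Col4a3 overlap those of the opposite-strand gene C430014B12Rik over 563 bases, and reads of such pairs cannot be told apart because the libraries do not mark strand.

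Of the 3 chains of type IX collagen, a small collagen that decorates cartilage fibrils, Col9a3 was called and Col9a2 was not. Col9a3 (ENSMUSG00000027570, chromosome 2, 180597790 to 180622189, plus strand) had 4.62, 3.49, 3.88 and 1.99 TPM in Chd4KO replicates 1 to 4, against 0.0366, 0.140, 0.155 and 0.130 TPM in Control replicates 1 to 4, a change of 1.98 ± 0.22 (log2, SE). The groups lay far apart. The end of Col9a3 overlaps Tcfl5, a transcription factor gene on the opposite strand, over 234 exonic bases. Tcfl5 had 44.1, 23.6, 25.6 and 13.5 TPM in Chd4KO libraries and 0.0396 to 0.119 TPM in Control libraries, a change of 4.55 ± 0.31 (log2, SE, limma adjusted p = 0.00035). Like Col9a3, Tcfl5 entered the fit only through the Chd4KO libraries, where it is high, so its p is affected by the filter. Reads assigned to Col9a3 numbered 12.7 to 18.5% of those assigned to Tcfl5 in the Chd4KO libraries. How many of the Col9a3 reads lie in the shared stretch cannot be told from the deposited values, which give 1 number per gene.

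Col9a2 had 5.04, 2.79, 3.58 and 0.245 TPM in Chd4KO replicates 1 to 4, against 1.51, 1.19, 1.65 and 0.870 TPM in Control replicates 1 to 4. In 3 Chd4KO libraries it was above every Control library, and in Chd4KO replicate 4 it was below all of them. Its change of 0.57 ± 0.44 (log2, SE) did not pass, and without Chd4KO replicate 4 it was 1.05 and passed. Col9a1, the third chain, had no read.

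Col6a3, a long chain of the beaded-filament collagen VI, had 0.427, 0.284, 1.70 and 1.52 TPM in Chd4KO libraries and 1.65, 5.02, 4.61 and 3.14 TPM in Control libraries. The groups overlapped by 1 library, and the change of -1.22 ± 0.35 (log2, SE) did not pass. Its partner chains Col6a1 and Col6a2 did not exceed 0.162 and 0.136 TPM in any library, so that Col6a3, like Col4a1, was transcribed without its usual partners in both genotypes. Col8a1, a short-chain collagen of vessel walls and membranes, had 2.49 TPM in Chd4KO replicate 2, 0.0323 to 0.389 TPM in the other Chd4KO libraries and 0.00800 to 0.109 TPM in Control libraries. Col16a1 had 0.188 to 2.08 TPM in Chd4KO libraries and 0.316 to 0.834 TPM in Control libraries, and the groups overlapped.

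Summed over all 26 collagens, the level was 95.3, 35.4, 57.4 and 11.9 TPM in Chd4KO replicates 1 to 4, against 34.0, 29.2, 23.3 and 17.8 TPM in Control replicates 1 to 4, and the groups overlapped. What made up the sum differed. Col5a3 made up 77.3, 37.3, 62.7 and 28.2% of it in Chd4KO replicates 1 to 4, and at most 0.414% in any Control library. Col4a1 made up 3.28, 21.3, 13.3 and 30.5% in Chd4KO replicates 1 to 4, above Col5a3 in replicate 4, and 42.5 to 54.0% in Control libraries. Col5a2 made up at most 0.918% in any Chd4KO library and 36.0, 19.5, 4.08 and 11.4% in Control replicates 1 to 4. Over the summed Control libraries Col5a2 made up 20.03% and Col6a3 13.8%, and without Control replicate 1 this order turned, with 12.3% for Col5a2 and 18.1% for Col6a3.

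Among the hydroxylases P4ha2 was higher in Chd4KO. P4ha1, P4ha2 and P4ha3 encode alternative catalytic subunits of prolyl 4-hydroxylase, which stabilises the collagen helix. P4ha2 (ENSMUSG00000018906, chromosome 11, 54100095 to 54131665, plus strand) had 31.1, 38.1, 27.6 and 24.8 TPM in Chd4KO replicates 1 to 4, against 3.51, 5.66, 7.83 and 5.81 TPM in Control replicates 1 to 4. The values were tight within each group and did not overlap, and the change was 2.25 ± 0.24 (log2, SE). With 1244 to 1832 reads in each Chd4KO library and 155 to 654 in each Control library, P4ha2 is the 1 of the 5 genes with over 100 reads in every library of both groups. P4ha1 had 52.0, 51.0, 42.8 and 13.99 TPM in Chd4KO libraries and 43.4, 36.2, 40.2 and 35.8 TPM in Control libraries, a change of -0.12 ± 0.39 (log2, SE) that did not pass and was above 0 under both other scalings. P4ha3 had no read in Chd4KO libraries and 3 in Control libraries. The mean level of P4ha2 was thus 30.4 ± 5.76 TPM beside 39.95 ± 17.8 TPM for P4ha1 in Chd4KO libraries, and 5.70 ± 1.77 TPM beside 38.9 ± 3.59 TPM in Control libraries (SD, n = 4).

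The lysyl hydroxylases Plod1 and Plod3, which modify lysines for crosslinks and sugar chains, did not pass. Plod3 had 37.8, 32.8, 26.4 and 14.5 TPM in Chd4KO libraries and 32.8, 24.3, 24.9 and 24.4 TPM in Control libraries, with a change whose sign depended on the scaling. Exons of Plod3 share 529 bases with Znhit1 on the opposite strand. Plod1 had 3.46 to 12.5 TPM in Chd4KO libraries and 5.71 to 8.62 TPM in Control libraries. Plod2 did not exceed 0.300 TPM in any library. The lysyl oxidases were low: Lox had 1 read in the Chd4KO libraries and 4 in the Control libraries, and Loxl1 did not exceed 0.386 TPM. Loxl2 had 0.664, 0.576, 0.641 and 0.187 TPM in Chd4KO libraries and 0.757, 0.859, 1.28 and 0.730 TPM in Control libraries, with no overlap.

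Among the lecticans, large proteoglycans that bind hyaluronan, Bcan was the 1 gene detected at more than trace levels. Bcan (ENSMUSG00000004892, chromosome 3, 87987531 to 88000230, minus strand) encodes brevican, known from the matrix around neurons in the brain. It had 27.5, 5.36, 15.5 and 7.42 TPM in Chd4KO replicates 1 to 4, against 0.139, 0.0266, 0.0210 and 0.0462 TPM in Control replicates 1 to 4. All Chd4KO values lay far above all Control values, at 154 to 811 reads a library against 1 to 4, and the change was 3.57 ± 0.42 (log2, SE). As with Col5a3, Chd4KO replicate 1 was highest and replicate 3 next. Ncan, encoding the related neurocan, had 0.268, 0.177, 0.0385 and 0 TPM in Chd4KO libraries and at most 0.0474 TPM in Control libraries. Vcan, the lectican of connective tissue, had 0.0479 to 0.0783 TPM in Chd4KO libraries and 0.00866 to 0.0781 TPM in Control libraries, and Acan of cartilage had no read.

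Adamtsl5 (ENSMUSG00000043822, chromosome 10, 80339110 to 80348412, minus strand) encodes a secreted ADAMTS-like protein without a protease domain. It had 4.32, 1.29, 4.11 and 1.86 TPM in Chd4KO replicates 1 to 4, against 0.149, 0.183, 0.181 and 0.106 TPM in Control replicates 1 to 4. The groups did not overlap, and the change was 1.66 ± 0.29 (log2, SE). Without Chd4KO replicate 3 the change was 1.501 and was not called, and without each Control library in turn it was 1.64 to 1.67 and was not called. Of the metalloproteinase inhibitors, Timp4 had 6.18, 4.42, 4.16 and 3.19 TPM in Chd4KO libraries and 4.81, 5.31, 4.09 and 4.91 TPM in Control libraries. Timp4 lies within Syn2 on the opposite strand, with 90 exonic bases shared. Syn2 averaged 18.5 TPM in Chd4KO libraries and 19.2 TPM in Control libraries, and how many reads of Timp4 lie in the shared stretch was not tested. Timp3 lies within Syn3 on the opposite strand, with 1733 exonic bases shared. It had 3.17, 1.06, 0.153 and 0.0415 TPM in Chd4KO libraries and 0.0520 to 0.212 TPM in Control libraries, and the groups overlapped. Syn3 had 1.76 TPM in Chd4KO replicate 1, where Timp3 was highest, and at most 0.772 TPM elsewhere. Timp1 did not exceed 0.477 TPM in any library.

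Of the laminin, nidogen, perlecan, fibronectin and SPARC genes among the members, Lamc1 was the 1 that entered the fit. It had 5.25, 3.95, 2.36 and 0.602 TPM in Chd4KO libraries and 5.46, 3.79, 3.11 and 3.83 TPM in Control libraries, and its change of -0.47 ± 0.40 (log2, SE) did not pass. Its usual partners were far lower, with Lamb1 at most at 0.557 TPM and Lama5 at most at 0.435 TPM in any library. The nidogen gene Nid1 did not exceed 0.135 TPM, the perlecan gene Hspg2 0.0293 TPM and the fibronectin gene Fn1 0.102 TPM. Sparc, a collagen-binding glycoprotein abundant in stroma, had 0.146, 1.05, 0.585 and 0.379 TPM in Chd4KO libraries and 0.149 to 0.315 TPM in Control libraries, and the groups overlapped.

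Over all 50 members, the groups did not overlap in 11. Col5a3, Bcan, P4ha2, Col9a3, Adamtsl5, Col1a1 and Col6a2 were higher in every Chd4KO library, and Col5a2, Col4a1, Col11a2 and Loxl2 were lower. The share without overlap over all genes, tested or not, was not worked out, so the 11 of 50 are a description. Of the 13 members in the fit, 6 did not overlap, and over all genes tested the share without overlap was 14.8%. Of these 6, Col5a3, Bcan, Col9a3 and Adamtsl5 entered the fit only with all Chd4KO libraries at 1 TPM or more and all Control libraries under it. Their lack of overlap was thus fixed by the filter, and the 2 shares are not comparable.

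Markers of other cell types were measured beside these genes, because collagens are typical of stroma and Bcan of glia. In bulk samples fewer cells of a type and less RNA per cell cannot be told apart. The 12 mesenchymal markers summed to 6.497, 4.41, 4.83 and 2.81 TPM in Chd4KO replicates 1 to 4, against 1.64, 2.20, 2.54 and 3.63 TPM in Control replicates 1 to 4 (exact permutation p = 0.0571, two-sided, adjusted p = 0.133 over the 7 marker lists tested). Of the 12, 10 were under 1 TPM in every library. The remaining pair, Tagln and Myl9, encode actin-linked proteins that are not limited to mesenchyme. Without Tagln and Myl9 the sum was 0.858 to 1.96 TPM in Chd4KO libraries and 0.286 to 0.636 TPM in Control libraries, so it was higher in every Chd4KO library at a low level. Des, a muscle and pericyte filament gene, had 0.270 to 0.996 TPM in Chd4KO libraries and 0.0227 to 0.117 TPM in Control libraries. Acta2, smooth muscle actin, had 0.384 to 0.568 TPM in Chd4KO libraries and 0 to 0.272 TPM in Control libraries. Neither gene overlapped between the groups. The defining fibroblast and pericyte genes Pdgfra, Pdgfrb, Dcn and Lum did not exceed 0.113, 0.129, 0.0485 and 0.226 TPM in any library. Pdgfra had 22 reads over the Chd4KO libraries and 0 over the Control libraries, while Pdgfrb, Dcn and Lum overlapped between the groups. The part of stromal RNA in the values of Col5a3, Adamtsl5 and Col1a1 was not tested.

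Schwann and glial markers summed to 12.9, 11.9, 12.9 and 6.72 TPM in Chd4KO libraries, against 9.21, 8.10, 5.84 and 6.94 TPM in Control libraries (exact permutation p = 0.114, adjusted p = 0.2). The glial genes Sox10, Foxd3, Cdh19 and Sox2 had no read in any library, and Gfap was at most at 0.0128 TPM. The 12 endothelial markers summed to 7.24, 10.2, 6.85 and 7.15 TPM in Chd4KO libraries, against 6.34, 5.98, 6.65 and 6.38 TPM in Control libraries (exact permutation p = 0.0286, the lowest possible with 4 libraries a group). Adjusted over the 7 marker lists tested that p was 0.1. Esam and Egfl7 made up most of the sum and moved in opposite directions, each without overlap. Egfl7 averaged 2.88 TPM in Chd4KO libraries and 1.30 TPM in Control libraries (limma adjusted p = 0.0733). Esam averaged 3.32 TPM in Chd4KO libraries and 4.10 TPM in Control libraries (limma adjusted p = 0.477). Pecam1 and Plvap overlapped between the groups and were highest in Chd4KO replicate 2, at 1.11 and 1.64 TPM. Cdh5 and Kdr did not exceed 0.0201 and 0.0902 TPM. The part of glial and endothelial RNA in the values of the matrix genes was not tested.

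Acinar markers stood out in 1 library of each group. Their sum was 36262 TPM in Chd4KO replicate 2 and 37.3 to 356 TPM in the other Chd4KO libraries, against 1480 TPM in Control replicate 2 and 108 to 252 TPM in the other Control libraries (exact permutation p = 0.657). The marker Bhlha15 alone had 166, 74.1, 143 and 34.7 TPM in Chd4KO replicates 1 to 4, and 113, 51.4, 91.3 and 89.7 TPM in Control replicates 1 to 4. It made up most of the sum in Chd4KO replicates 3 and 4 and in Control replicates 1 and 3. No other acinar marker exceeded 3.31 TPM in those libraries. Col5a3, Bcan and Adamtsl5 were not highest in Chd4KO replicate 2, while Col8a1, Sparc and P4ha2, among others, were. Without Chd4KO replicates 2 and 4, the libraries with the most acinar RNA and the highest insulin share, the log2 changes were 5.66 (Col5a3), 4.36 (Bcan), 2.22 (P4ha2), 2.23 (Col9a3) and 2.18 (Adamtsl5). These are a description, since the genes were chosen on the same comparison. Leukocyte markers summed to 77.0 to 112 TPM in Chd4KO libraries and 36.3 to 62.6 TPM in Control libraries (exact permutation p = 0.0286, adjusted p = 0.1). In that list Cd68 averaged 4.91 ± 0.79 TPM in Chd4KO libraries and 1.55 ± 0.43 TPM in Control libraries (SD, n = 4 each, limma adjusted p = 0.0132), and Fcer1g averaged 48.1 ± 16.97 TPM in Chd4KO libraries and 15.8 ± 5.36 TPM in Control libraries (limma adjusted p = 0.0482). Cd79a had 5.87 to 26.1 TPM in Chd4KO libraries and 1.16 to 3.15 TPM in Control libraries, with no overlap, and did not pass (limma adjusted p = 0.0884). The common leukocyte antigen gene Ptprc was at most at 0.831 TPM, in Control replicate 4. Ptprc averaged 0.0857 TPM in Chd4KO libraries and 0.351 TPM in Control libraries. Cd3e averaged 0.0714 TPM in Chd4KO libraries and 0.407 TPM in Control libraries, and both genes overlapped between the groups. Of the 12 markers 7 were tested, with a change above 0 in 4 and below 0 in 3, which were Csf1r, Cd74 and H2-Aa. The part of leukocyte RNA in the values of the matrix genes was not tested. Ductal markers summed to 68.2 to 246 TPM in Chd4KO libraries and 115 to 152 TPM in Control libraries (exact permutation p = 0.571).

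**Figure D3:**
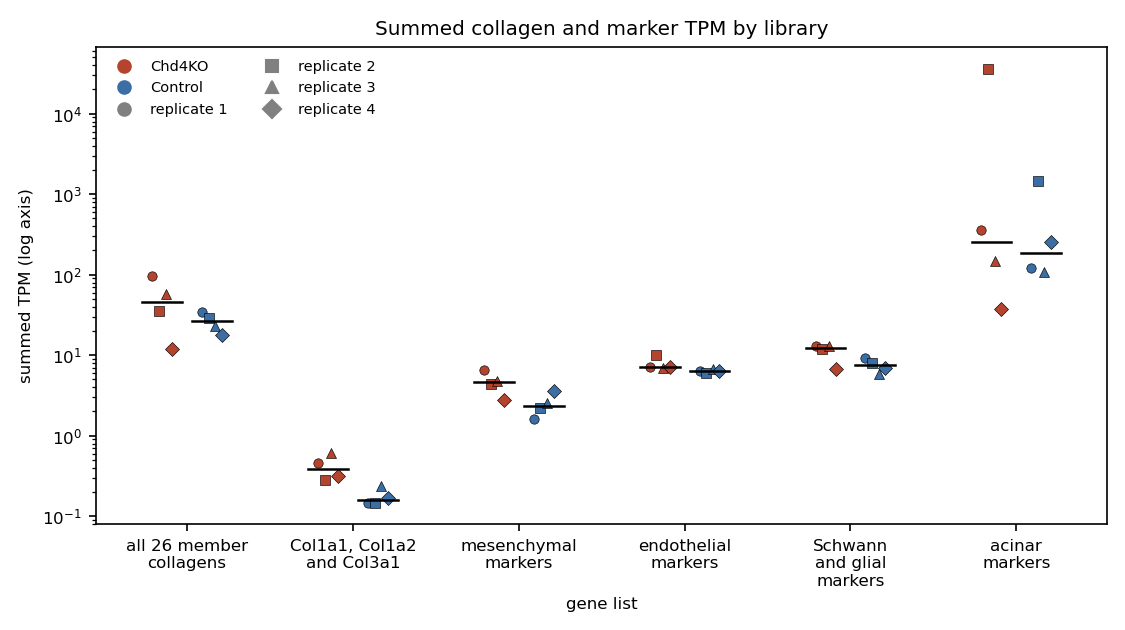
Summed TPM of all 26 collagens, of Col1a1, Col1a2 and Col3a1, and of 4 marker lists in each library, on a log axis, with Chd4KO libraries in red on the left, Control libraries in blue on the right and a bar at the group median. The 3 stromal collagens lie under 1 TPM in all libraries, and the acinar sum is 36262 TPM in Chd4KO replicate 2.

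The rest of the matrix programme was read from 196 further genes in 8 lists, chosen by family. Of these, 195 were found by symbol and 70 entered the fit. In Chd4KO 4 rose, 3 fell and 63 did not pass, so that 10.0% of the tested genes were called, against 2.97% of all genes. The median change was -0.23 (log2), close to the -0.25 of all genes tested. The called genes were spread over 5 of the 8 lists. These lists were chosen with earlier results of these data known, and Smoc1 entered the fit only through Chd4KO libraries. Thbs1 entered it through the Control libraries, where it is high. The 10.0% is therefore a description. With a library left out in turn the count was 3 to 10, and it was 171 to 829 over all genes.

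In the list of collagen folding, processing and export 20 of 28 genes were tested, of which 2 rose and 1 fell. Crtap, a subunit of the prolyl 3-hydroxylation complex of the endoplasmic reticulum, had 8.64, 9.99, 11.6 and 11.2 TPM in Chd4KO replicates 1 to 4, against 43.7, 30.6, 28.5 and 31.9 TPM in Control replicates 1 to 4. It fell by 1.60 ± 0.20 (log2, SE, limma adjusted p = 0.0033), with tight values in both groups. The other subunits of that complex, named after their values were seen, did not pass, with P3h1 at 19.1 to 32.5 TPM in Chd4KO libraries and 18.04 to 27.3 TPM in Control libraries (adjusted p = 0.746), and Ppib at 39.1 to 62.1 TPM in Chd4KO libraries and 45.8 to 74.6 TPM in Control libraries (adjusted p = 0.538).

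Pcolce2, which enhances the trimming of procollagen ends, had 7.40, 4.38, 7.67 and 4.33 TPM in Chd4KO libraries, against 1.62, 1.202, 1.62 and 0.962 TPM in Control libraries, a rise of 1.53 ± 0.23 (log2, SE, limma adjusted p = 0.00943). Its relative Pcolce, also named after its values were seen, had 10.47, 12.7, 2.94 and 1.21 TPM in Chd4KO libraries and 0.134 to 0.492 TPM in Control libraries, with no overlap, but did not pass (adjusted p = 0.0715). Serpinh1, the collagen chaperone HSP47, had 6.66, 9.79, 7.20 and 7.71 TPM in Chd4KO libraries, against 4.10, 3.56, 3.32 and 3.36 TPM in Control libraries. It rose by 0.94 ± 0.18 (log2, SE, limma adjusted p = 0.0249). Its adjusted p was 0.0617 to 0.111 without each Control library in turn and 0.0702 without Chd4KO replicate 3. P4hb, the partner subunit of all 3 P4ha genes and a general disulfide isomerase, was likewise named after its values were seen and had 2583, 1324, 2103 and 548 TPM in Chd4KO libraries and 1476 to 1935 TPM in Control libraries (adjusted p = 0.698). P4hb thus far exceeded the P4ha genes in both groups.

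Smoc1, a secreted SPARC-related protein of basement membranes, was the 1 called gene of 5 tested in its list of laminins and basement membrane proteins. It had 9.39, 4.13, 6.18 and 3.16 TPM in Chd4KO replicates 1 to 4, against 0.404, 0.617, 0.975 and 0.269 TPM in Control replicates 1 to 4, and rose by 2.03 ± 0.30 (log2, SE, limma adjusted p = 0.00845). With all Control libraries under 1 TPM, Smoc1 entered the fit only through the Chd4KO libraries, where it is high, so its p and its part in the count of called genes are affected by the filter. Timp2, an inhibitor of matrix metalloproteinases, had 23.1, 21.7, 17.2 and 8.82 TPM in Chd4KO libraries, against 3.66, 5.60, 4.53 and 4.73 TPM in Control libraries. It rose by 1.66 ± 0.29 (log2, SE, limma adjusted p = 0.0187) and was the 1 called gene of 7 tested proteases and inhibitors. Its adjusted p was 0.0608 to 0.0725 without each Control library in turn and 0.0638 without Chd4KO replicate 3.

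Cspg5 and Thbs1, matrix genes of nerve tissue and of cell adhesion, fell. Cspg5, a chondroitin sulfate proteoglycan of the nervous system, had 2.59, 1.63, 2.48 and 1.51 TPM in Chd4KO libraries, against 15.9, 6.498, 5.23 and 7.11 TPM in Control libraries. Its change was -1.57 ± 0.32 (log2, SE, limma adjusted p = 0.0328), and its adjusted p was 0.0508, 0.0705 and 0.0776 without Chd4KO replicates 1, 2 and 3 and 0.0872 and 0.0994 without Control replicates 2 and 4. It was the 1 called gene of 7 tested in the list of hyaluronan and perineuronal net partners. Hapln4, a link protein that binds brevican in the brain, was named after its values were seen, did not pass, and had 206, 98.0, 153 and 64.6 TPM in Chd4KO libraries and 102 to 180.1 TPM in Control libraries (adjusted p = 0.917).

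Thbs1, encoding thrombospondin 1, had 0.432, 2.24, 0 and 0.0695 TPM in Chd4KO libraries, against 3.42, 6.23, 3.09 and 3.70 TPM in Control libraries. It fell by 1.74 ± 0.38 (log2, SE, limma adjusted p = 0.0457), 1 of 12 tested genes of elastic fibres and matricellular proteins. Every Control library but only Chd4KO replicate 2 reached 1 TPM, so Thbs1 entered the fit through the Control libraries, where it is high. Its p and its part in the count of called genes are therefore affected by the filter. The exons of Thbs1 share 208 bases with the opposite-strand gene Gm29233. Gm29233 averaged 1.63 TPM in Chd4KO libraries and 9.95 TPM in Control libraries and was not called, and how many reads of Thbs1 lie in the shared stretch was not tested. The Thbs1 call was the least stable of the 7, with an adjusted p of 0.101 to 0.156 without each Control library in turn and of 0.0845, 0.129 and 0.0620 without Chd4KO replicates 1, 3 and 4.

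No gene was called among the 16 tested matrix receptors, the 3 tested remaining collagens, or the small leucine-rich proteoglycans, of which all 12 were under 1 TPM in every library. At an unadjusted limma p under 0.05 the receptors numbered 3 and the remaining collagens 0, and with voom on recovered reads 1 receptor and 0 of these collagens were called. The most abundant receptor was the heparan sulfate proteoglycan Gpc4, with 170.4, 215, 112 and 44.7 TPM in Chd4KO replicates 1 to 4, against 163, 122, 97.0 and 108 TPM in Control replicates 1 to 4 (limma adjusted p = 0.963). The integrin chain Itgb1, shared by most collagen and laminin receptors and named after its values were seen, had 111, 96.2, 80.6 and 16.7 TPM in Chd4KO libraries and 107 to 151 TPM in Control libraries (adjusted p = 0.408). Of the remaining collagens Col6a6 had the highest level, 19.1, 5.61, 5.82 and 1.88 TPM in Chd4KO libraries and 8.74 to 13.6 TPM in Control libraries (adjusted p = 0.494). Col13a1, a membrane-bound collagen of the same list, reached 1 TPM in 2 libraries only and was not tested. It had 4.86, 0.665, 2.10 and 0.667 TPM in Chd4KO libraries, against 0.0301, 0, 0 and 0.0535 TPM in Control libraries, or 290 reads and 5 reads in all, with no overlap, and was named after its values were seen. A change that misses the threshold with 4 libraries a group does not show that the level was kept.

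**Figure D4:**
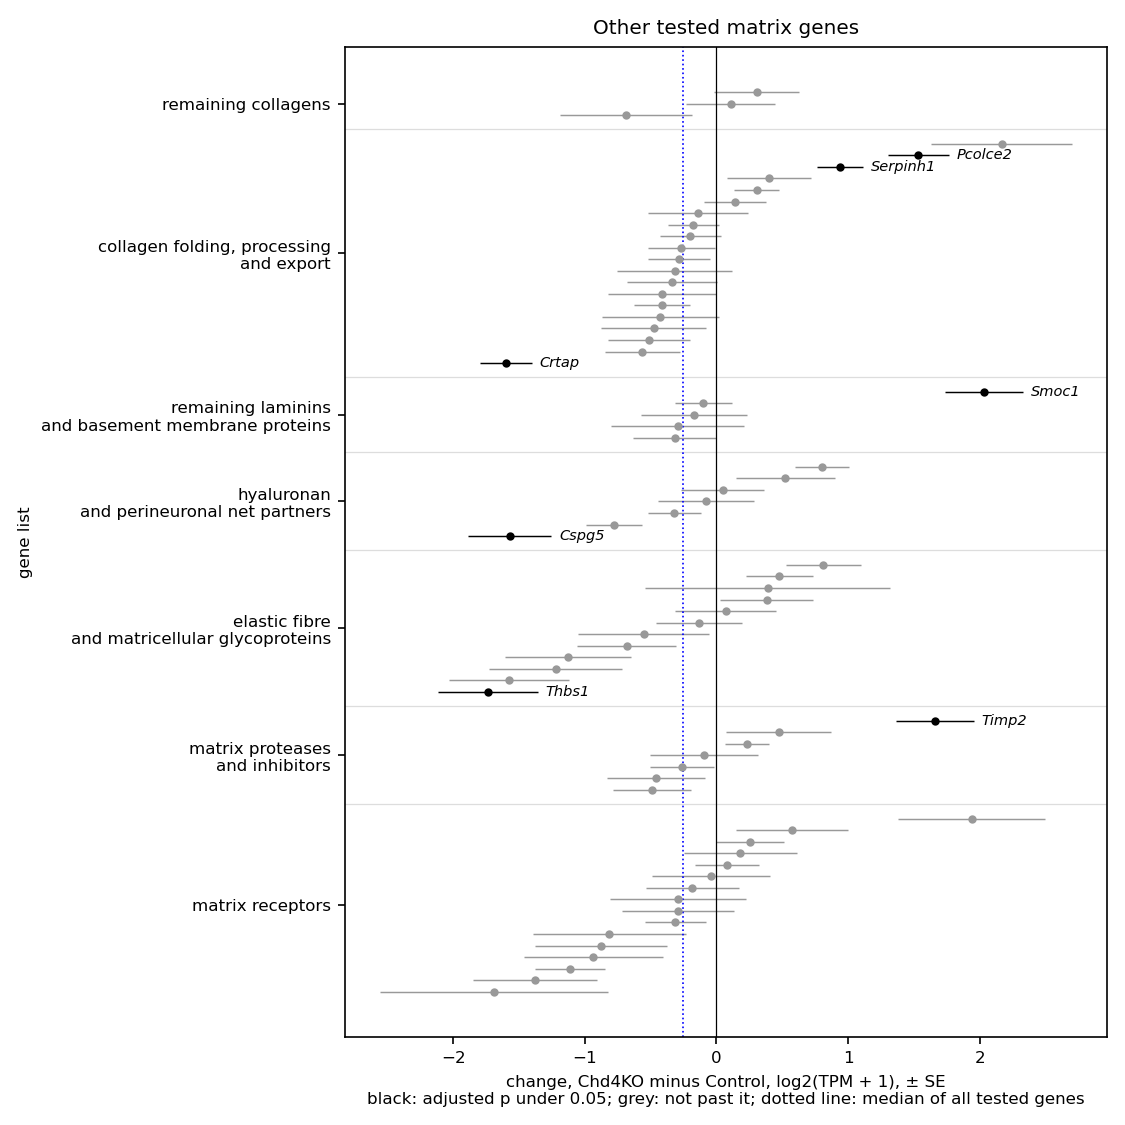
Change of each of the 70 other tested matrix genes, Chd4KO minus Control on the log2(TPM + 1) scale with its standard error, grouped by list. The 7 called genes are black and named, the others grey, and the dotted line is the median change of all tested genes at -0.25.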

How the data were processed

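RNA of sorted beta cells was made into cDNA with SMART-Seq v4 and into Nextera XT libraries, which do not mark strand, per the labels' protocols. FastQC, Trimmomatic, HISAT2, HTSeq, DESeq2 and the build mm10 are named in the submitters' processing notes, without roles. The authors deposited TPM, 1 table of 55487 genes per library, and 99.5% of the gene identifiers were found in GENCODE M21. Read numbers were recovered from TPM and exon length, and 98.5 to 98.7% of values came out within 0.05 of a whole number. They were used for depth, for floors of 3 reads and for an alternative fit with voom.

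Values were taken as log2(TPM + 1). Genes with 1 TPM or more in at least 4 libraries were tested with limma 3.58.1 (R 4.3.3), Chd4KO minus Control, with Benjamini-Hochberg adjustment over 15189 genes and a threshold of 0.05. The step was tested on simulated data. Marker sums were compared with exact permutation tests, two-sided. The members and all gene lists were chosen with earlier results of these data known. Genes given with the value of every library were the called members, the 2 most abundant of each role group, the called genes of each further list (or the most abundant tested one where none was called), Chd4 and genes overlapping a called member, and others so given are additional. Alternatives were another pseudocount, no filter, other scalings, a variance trend, the replicate number as a block, voom, leaving out each library, and leaving out Chd4KO replicates 2 and 4.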

Additional observations from a re-analysis of the deposited data

Results flagged for a closer look

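In 70 groups of 4 libraries examined, 6 held a library whose distance from its nearest neighbour was, as a share of the group's range, over Dixon's critical value (8.57%, against about 5% by chance). Plod3 had 32.8 TPM in Control replicate 1, against 24.3 to 24.9 TPM in the other Control libraries. Fn1 had 0.102 TPM in Control replicate 3, or 14 reads, against 0 to 0.00462 TPM in the other Control libraries. The endothelial marker sum was 10.2 TPM in Chd4KO replicate 2, against 6.85 to 7.24 TPM in the other Chd4KO libraries. The Schwann and glial marker sum was 6.72 TPM in Chd4KO replicate 4, against 11.9 to 12.9 TPM in the other Chd4KO libraries. The acinar marker sum was 36262 TPM in Chd4KO replicate 2, against 37.3 to 356 TPM in the other Chd4KO libraries, and 1480 TPM in Control replicate 2, against 108 to 252 TPM in the other Control libraries.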

How the results depend on the processing

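As a description, since the members were chosen on this comparison and Bcan, Col9a3, Adamtsl5 and Col5a3 passed the filter only through Chd4KO libraries, Bcan, P4ha2 and Col9a3 were called in 16 alternatives, Adamtsl5 in 11 and Col5a3 in 10. Col5a3 was also not called without the filter on low values (log2 change 4.29). Crtap, Pcolce2 and Smoc1 were called in all 16, and Timp2 in 11, Serpinh1 in 10, Cspg5 in 9 and Thbs1 in 6. The 451 genes called became 752 with median-of-ratios scaling (467 higher and 285 lower, 62.1% higher against 51.7%) and 783 with scaling that left out hormones and mitochondrial genes (442 and 341). These scalings moved the median change of all genes to -0.02 and -0.14. The count was 785 without Chd4KO replicates 2 and 4, and 171 to 829 when each library was left out in turn. The 7 other matrix genes called became 11 and 13 under those scalings and 3 to 10 with a library left out, and the 5 members became 3 to 6 with a library left out.

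The exact permutation p-values in this paragraph are not adjusted over the 7 marker lists. With the main scaling an exact p of 0.0286 was 0.1 after that adjustment. The mesenchymal difference of 2.14 TPM became 2.63 and 4.68 TPM under the median-of-ratios and hormone-free scalings. The Schwann and glial difference became 5.12 and 8.57 TPM under them, all at the smallest exact p, 0.0286. Under the same scalings the endothelial difference became 3.16 and 4.58 TPM (exact p = 0.0571). It was 0.737 to 1.84 TPM with a library left out, where 0.0571 is the smallest p. The acinar difference ranged from -310 TPM, without Chd4KO replicate 2, to 11765 TPM. Of genes that were not called, the log2 change turned positive for P4ha1 (0.16, 0.031), Plod3 (0.27, 0.15), Timp4 (0.14, 0.029) and Gpc4 (0.24, 0.11) under those scalings. It did so for P4ha1 (0.31), Plod3 (0.27), Timp4 (0.023) and Gpc4 (0.41) without Chd4KO replicate 4, for Plod3 (0.10) and Gpc4 (0.10) without Control replicate 1, for Plod3 (0.11) and Gpc4 (0.070) with voom (recovered reads), and for P4ha1 (0.28), Plod3 (0.25), Timp4 (0.078), Col6a6 (0.026) and Gpc4 (0.20) without Chd4KO replicates 2 and 4. With a library left out in turn the lowest changes were -0.29 (P4ha1), -0.17 (Plod3), -0.24 (Timp4) and -0.33 (Gpc4). The cause was not tested.

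With the replicate number as a block, 274 genes, 6 other matrix genes and 5 members were called, and Serpinh1 was not (adjusted p = 0.0971). Libraries with the same number had correlations of -0.02 to 0.43 between their deviations from the group means, those with different numbers -0.26 to 0.24, and 2 of 8 libraries correlated best with their own number, so the numbers were not taken as pairs. At few reads, as for Col1a1 or Col5a1, depth limits what can be said of a difference.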
